A study of Rattus norvegicus with 24 samples.

Results

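Genes for collagens, laminins and matrix proteoglycans were examined in the nucleus accumbens (NAc) of rats exposed to methamphetamine (METH). The members were taken by a rule on gene symbols, which was set with earlier results of these data known. The rule takes collagen chains, laminin chains, fibulins, fibronectin, perlecan, nidogens, small leucine-rich proteoglycans, lecticans, and the matricellular proteins SPARC and SPARCL1. Of 13337 named genes on the array, 43 met it, with 1 probe each, and none of them was a nidogen, perlecan or neurocan gene. Of these 43 genes, 33 were detected on at least 4 of the 24 arrays (detection p under 0.05) and were tested. These detection calls rest on a match of detection values to intensities that was inferred from the values.

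The extracellular matrix is the mesh of secreted proteins and sugars between cells. In brain, collagens are largely found in vessel walls and meninges, where collagen IV and laminins form the basement membrane under endothelium and astrocyte endfeet, and fibrillar collagens bound by small leucine-rich proteoglycans are made by fibroblasts. The neuropil holds little collagen and is rich in hyaluronan-binding proteoglycans of the lectican family, which condense into perineuronal nets around some neurons.

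The rats, male Sprague-Dawley animals, were injected on 2 occasions a month apart, first with METH (10 mg/kg) or saline and then with METH (2.5 mg/kg) or saline, and were killed 2 h after the later injection. The groups are MM (METH then METH, 7 arrays), MS (METH then saline, 7 arrays), SM (saline then METH, 6 arrays) and SS (saline at both, 4 arrays). MM against SS gives both injections together, MS against SS the first METH injection a month later, SM against SS the second METH dose alone, and MM against MS or SM what 1 injection added to the other. The RNA came from bulk tissue that the labels call NAc and, for its source, striatal, so that fewer cells of a type and less RNA per cell cannot be told apart.

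Each array is a 1-colour Illumina BeadChip. Levels are log2 of normalized intensity, to which the normalization added an offset of 16, and matrix genes lay at 4.39 to 4.95 on arrays where they were not detected. A fold change on this scale understates that of a dim gene, and levels of different probes are not comparable with each other. No label says which arrays came from separate rats. The paper gives the same number of rats in each group for its arrays, whereas the groups here differ in size, so p-values are read only as the spread between these samples, which may be technical. Differences are log2 differences with the SE of the limma fit, and a gene is called at an adjusted p under 0.05 (Benjamini-Hochberg over 12943 tested probes). MM, MS and SM were each set against the same 4 SS arrays, so that these comparisons are not independent of each other.

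Median array intensity was 12.7 to 17.1 in MM, 12.8 to 16.4 in MS, 11.4 to 23 in SM and 10 to 17.1 in SS. On each of the 2 slides lay 2 to 4 arrays of every group. SS replicate 1, MS replicate 1 and SM replicate 3 stood apart, with array weights of 0.340, 0.320 and 0.250 (a weight of 1 is that of an average array). Markers of other structures moved with the groups. All 16 tested genes that mark medium spiny neurons, the principal neurons of the NAc, were detected on every array. They summed to 33330 to 40659 in MM, 33998 to 44005 in MS, 36496 to 47809 in SM and 60796 to 68191 in SS. All 16 were called lower in MM and in MS than in SS, beside 11.5% and 9.24% of all probes. Hypothalamic and preoptic markers summed to 1728 to 2315 in MM, 1805 to 2845 in MS, 1716 to 2098 in SM and 789 to 1106 in SS. The part of these shifts in the results on matrix genes was not tested.

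In MM against SS, 16 of the 33 tested matrix genes were called, 8 higher and 8 lower, which is 48.5% of them, beside 22.5% of all probes. The higher genes were 4 of the 5 small leucine-rich proteoglycans, both SPARC family genes, the collagen I chain Col1a2 and the fibril-associated collagen Col14a1. The lower genes were 4 of the 5 tested basement membrane and network collagens (Col18a1, Col7a1, Col15a1 and Col4a1), with Col6a1, Col11a2, the laminin chain Lamb2 and the lectican Bcan. By direction, 11.0% of all probes were called higher and 11.5% lower, beside 24.2% of the members each way. Every MM array was above every SS array for 3 of the 33 (7.13% of all probes) and below for 5 (7.64%). The median difference over the 33 genes was -0.05, against -0.00 over the 8888 named genes tested.

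**Figure D1:**
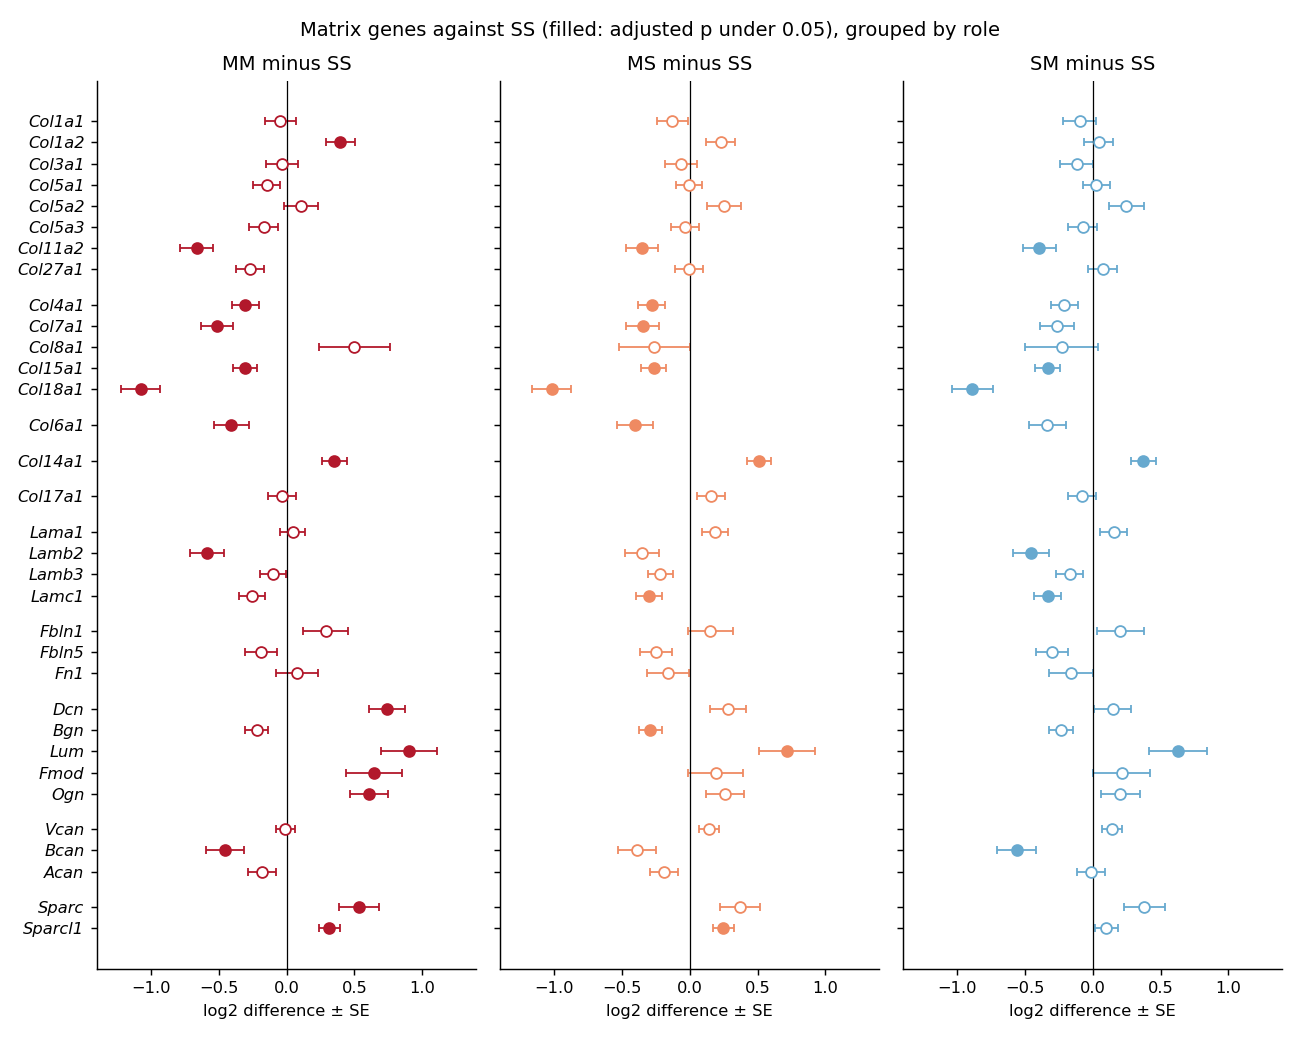
Log2 differences (x axis, with SE) of the 33 tested matrix genes (y axis, grouped by role) for MM, MS and SM, each minus the same 4 SS arrays. Filled points had an adjusted p under 0.05, and Col18a1 lies near -1 in all 3 panels.

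Decorin (Dcn) and lumican (Lum) are small leucine-rich proteoglycans that bind collagen fibrils and set their diameter, and their genes are direct neighbours in the rat genome. The level of Dcn was 7.43 to 7.97 in MM (median 7.78), 7.12 to 7.72 in MS with a median of 7.21, 6.94 to 7.53 in SM with a median of 7.09, and 7.30, 6.57, 7.20 and 6.94 in SS. All 7 MM arrays were above every SS array, and 6 of 7 were above every SM array. Dcn was 0.74 ± 0.13 higher in MM than in SS (1.67-fold, adjusted p = 1.75e-04). It is the sole matrix gene that was also called in MM against SM (0.59 ± 0.12, adjusted p = 0.0111) and against MS (0.46 ± 0.11, adjusted p = 0.0427). In exact two-sided permutation tests the p was 0.00606 for MM against SS, the smallest these group sizes allow, 0.00233 against SM (n = 7 and 6) and 0.00291 against MS (n = 7 each). The call against SS held with each array left out in turn, and on slide 1 alone (0.91) and slide 2 alone (0.59). The call against MS was lost in 11 of the 14 fits with 1 array left out, where the difference was 0.42 to 0.53 and the adjusted p reached 0.104.

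Lum had levels of 5.65 to 6.85 in MM (median 6.43), 5.99 to 6.50 in MS with a median of 6.19, 5.52 to 6.92 in SM with a median of 6.07, and 5.89, 5.35, 5.67 and 5.02 in SS. Every MS array was above every SS array, while 1 MM array and 1 SM array lay within the SS range. Lum was higher in each METH group, by 0.91 ± 0.21 in MM (1.87-fold, adjusted p = 0.002), 0.72 ± 0.21 in MS (1.65-fold, adjusted p = 0.0146) and 0.63 ± 0.21 in SM (1.55-fold, adjusted p = 0.0475). The call in SM was lost in 7 of 10 fits with 1 array left out (adjusted p up to 0.22), and that in MS without SS replicate 4 (adjusted p = 0.0929).

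Osteoglycin (Ogn), another proteoglycan of this family, was at 6.51 to 7.45 in MM (median 7.28), 6.55 to 7.03 in MS with a median of 6.68, 6.57 to 6.73 in SM with a median of 6.64, and 6.65, 6.27, 6.41 and 6.43 in SS. In MM 4 arrays stood at or above 7.28 and the other 3 overlapped the remaining groups. Ogn was 0.61 ± 0.14 higher in MM than in SS (1.52-fold, adjusted p = 0.00227), with 0.26 in MS and 0.20 in SM (adjusted p = 0.219 and 0.408). Fibromodulin (Fmod), which also binds fibrillar collagen, spread widely in MM, at 4.94 to 6.50 (median 5.44), and was at 4.77 to 5.39 in MS, 4.65 to 5.49 in SM, and 4.64, 5.29, 4.90 and 5.01 in SS. Fmod was detected on 3 of 4 SS arrays, so that part of its SS levels lay near background. Its difference in MM was 0.64 ± 0.20 (1.56-fold, adjusted p = 0.0234). The call was lost without SS replicate 1, SS replicate 3 or MM replicate 5 (adjusted p = 0.0825, 0.058 and 0.0507). Biglycan (Bgn), the family member closest to Dcn in structure, had its highest levels in SS. It was at 5.12 to 5.55 in MM, 5.22 to 5.42 in MS, 5.12 to 5.64 in SM and 5.53 to 5.69 in SS, and was called lower in MS alone (-0.29 ± 0.08, adjusted p = 0.0167), a call lost without SS replicate 2 or SS replicate 3.

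Sparc and Sparcl1 encode secreted matricellular glycoproteins. SPARC binds collagen, and SPARCL1 (hevin) is an astrocyte protein that promotes synapse formation. Sparcl1 was at 13.03 to 13.39 in MM (median 13.17), 12.89 to 13.28 in MS with a median of 13.13, 12.85 to 13.08 in SM with a median of 12.99, and 12.93, 12.84, 12.87 and 12.88 in SS. The SS arrays were the tightest, and every MM array was above all of them. Sparcl1 was higher by 0.32 ± 0.08 in MM (adjusted p = 0.00522) and 0.25 ± 0.08 in MS (adjusted p = 0.0315), with 0.10 in SM (adjusted p = 0.489), and the MS call was lost in 6 of 11 fits with 1 array left out. Sparc was at 10.76 to 11.17 in MM (median 10.99), 10.45 to 11.21 in MS with a median of 10.87, 10.43 to 11.22 in SM with a median of 10.88, and 10.56, 10.31, 10.03 and 10.99 in SS. It was 0.53 ± 0.15 higher in MM than in SS (adjusted p = 0.0102), a call lost without SS replicate 3, the lowest SS array (0.38, adjusted p = 0.0771).

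Among the fibrillar collagens, Col1a2, which supplies 1 of the chains of collagen I, was at 8.99 to 9.39 in MM (median 9.13), 8.83 to 9.20 in MS with a median of 8.95, 8.60 to 9.22 in SM with a median of 8.69, and 8.94, 8.62, 8.56 and 8.87 in SS. No MM array overlapped SS. The difference was 0.40 ± 0.11 in MM (1.32-fold, adjusted p = 0.0075), 0.23 in MS and 0.04 in SM (adjusted p = 0.146 and 0.859). Its partner chain Col1a1 was detected on 2 of 7 MM, 1 of 7 MS, 0 of 6 SM and 1 of 4 SS arrays, and Col3a1 on 4, 6, 4 and 3, so that both lay near background, with no difference called. Col14a1, a collagen that sits on the surface of fibrils, was at 5.08 to 5.54 in MM (median 5.36), 5.40 to 5.60 in MS with a median of 5.48, 5.19 to 5.51 in SM with a median of 5.34, and 4.93, 4.71, 5.07 and 5.20 in SS. The MS arrays lay in a narrow band above every SS array. Col14a1 was detected on 3 of 4 SS arrays, so that part of its SS levels lay near background. It was higher by 0.35 ± 0.09 in MM (adjusted p = 0.0058), 0.51 ± 0.09 in MS (adjusted p = 1.87e-04) and 0.37 ± 0.09 in SM (adjusted p = 0.00802). The call in MS held with each array left out and on each slide alone (0.65 and 0.39). That in SM was lost without SS replicate 2 (adjusted p = 0.0555).

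**Figure D2:**
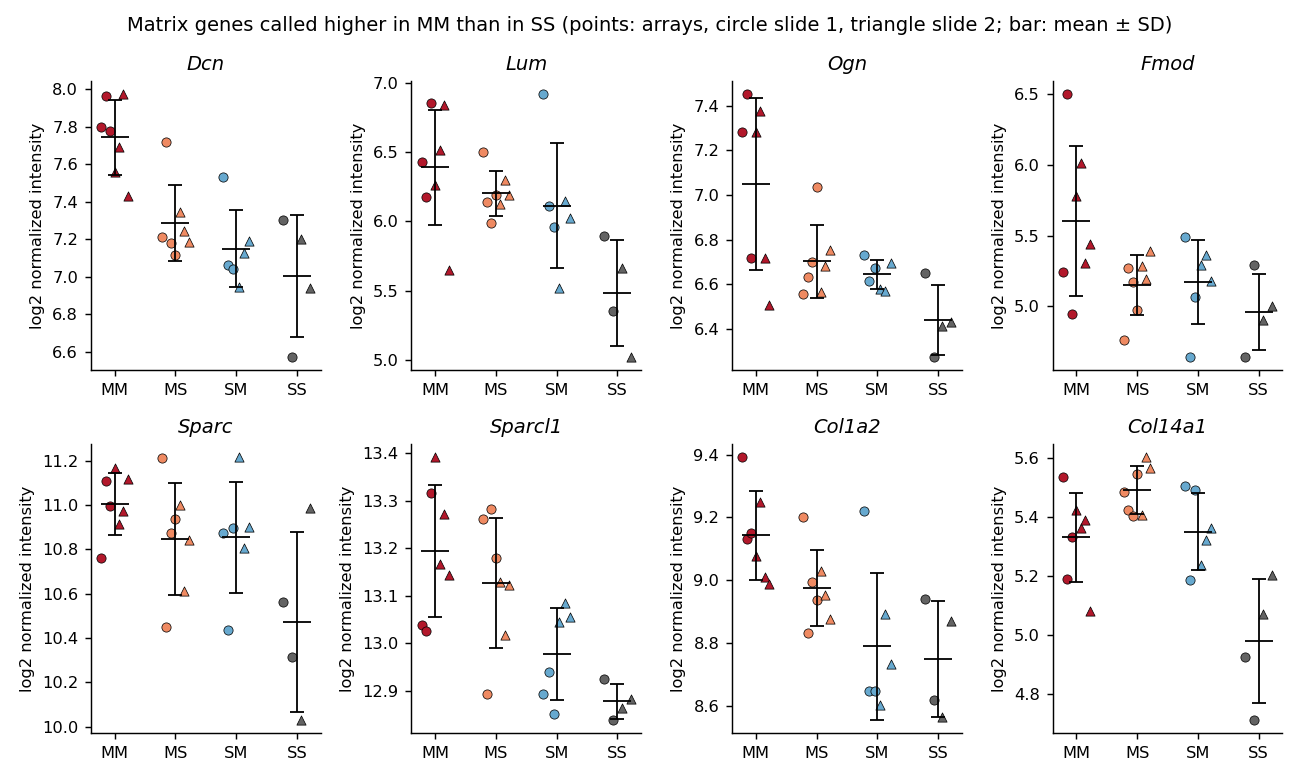
Log2 normalized intensity (y axis) of the 8 matrix genes called higher in MM than in SS, by group (x axis), with 1 point per array (circles slide 1, triangles slide 2) and the mean ± SD as bars. Dcn was highest in MM, with all 7 arrays at or above 7.43, while Lum and Col14a1 were higher in all 3 METH groups than in SS.

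Col18a1, the basement membrane collagen whose C-terminal fragment is endostatin, had the largest difference of any tested matrix gene in MM, MS and SM. Its level was 5.72 to 6.19 in MM (median 5.92), 5.63 to 6.36 in MS with a median of 5.98, 5.71 to 6.67 in SM with a median of 6.13, and 7.04, 6.87, 7.03 and 7.15 in SS. No array of a METH group reached the lowest SS array. Col18a1 was lower, with a difference of -1.08 ± 0.15 in MM (0.474-fold, adjusted p = 4.35e-06), -1.02 ± 0.15 in MS (0.493-fold, adjusted p = 1.15e-05) and -0.89 ± 0.15 in SM (0.539-fold, adjusted p = 1.52e-04). These calls held with each array left out. On slide 1 alone, with 2 SS arrays, the differences were -0.96, -0.92 and -0.73 (adjusted p = 0.0624, 0.0689 and 0.277), and on slide 2 alone -1.18, -1.13 and -1.05, all called.

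Of the other vascular and anchoring collagens, Col7a1, the anchoring fibril collagen, was at 4.94 to 5.26 in MM (median 5.10), 5.01 to 5.70 in MS with a median of 5.33, 5.21 to 5.70 in SM with a median of 5.26, and 5.34, 5.73, 5.65 and 5.83 in SS. All 7 MM arrays lay below SS (-0.51 ± 0.12, adjusted p = 0.00234). In MS the difference was -0.35 ± 0.12 (adjusted p = 0.0421). Col4a1, a main chain of basement membrane collagen IV, was at 6.46 to 6.73 in MM (median 6.61), 6.38 to 6.87 in MS, 6.48 to 6.91 in SM, and 7.03, 6.80, 6.90 and 6.82 in SS. It was lower, with a difference of -0.31 ± 0.10 in MM (adjusted p = 0.0241) and -0.28 ± 0.10 in MS (adjusted p = 0.0448). Col15a1, a relative of Col18a1, was detected on 1 of 7 MM, 3 of 7 MS, 1 of 6 SM and 3 of 4 SS arrays, so that its differences of -0.31 in MM, -0.27 in MS and -0.33 in SM (adjusted p = 0.0137, 0.0394 and 0.0154) are near background. In MM against SS, Col4a1 lost its call without SS replicate 1 or 3 (adjusted p = 0.0815 and 0.0547) and Col15a1 without SS replicate 3 or 4 (0.111 and 0.0628).

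Col8a1, a short-chain collagen of endothelial membranes, was detected on 5 of 7 MM, 0 of 7 MS, 0 of 6 SM and 2 of 4 SS arrays. Its levels in MM were 5.03, 7.04, 4.70, 5.36, 5.96, 4.72 and 5.00, against 4.51 to 4.75 in MS, 4.59 to 4.78 in SM, and 4.95, 4.78, 4.87 and 5.01 in SS. MM replicates 2 and 5 were far above all other arrays. Col8a1 passed the detection filter only through MM, the group in which it was high, so its values are a description. With MS and SM not above background, the mean of MM was at least 1.41-fold that of MS and at least 1.38-fold that of SM, and neither difference passed the test (0.76 ± 0.22 and 0.73 ± 0.23, adjusted p = 0.0964 and 0.109). MM replicates 2 and 5 were also the arrays brightest in choroid plexus markers, and without them the difference was 0.32 against MS and 0.06 against SS.

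Col6a1, a beaded filament collagen, was at 5.23 to 5.78 in MM (median 5.37), 5.22 to 5.61 in MS with a median of 5.42, 5.30 to 5.99 in SM with a median of 5.43, and 5.64, 5.53, 5.85 and 6.33 in SS. It was lower, with a difference of -0.41 ± 0.13 in MM (adjusted p = 0.0251) and -0.40 ± 0.13 in MS (adjusted p = 0.0322). Both calls were lost without SS replicate 4, the highest SS array (-0.24 and -0.24, adjusted p = 0.194 and 0.236). They were also lost without SS replicate 3, the call in MM without MM replicate 6 and that in MS without MS replicate 4. Col11a2, a minor fibrillar collagen best known from cartilage, was at 6.56 to 7.00 in MM (median 6.80), 6.85 to 7.43 in MS with a median of 7.06, 6.78 to 7.38 in SM with a median of 6.97, and 7.20, 7.53, 7.42 and 7.62 in SS. It was lower in each METH group, with differences of -0.67 ± 0.12 in MM (0.63-fold, adjusted p = 1.59e-04), -0.35 ± 0.12 in MS (adjusted p = 0.0404) and -0.40 ± 0.12 in SM (adjusted p = 0.0301). The MM call held with each array left out, and the MS and SM calls were lost in 8 of 11 and 6 of 10 such fits.

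The laminin β2 chain (Lamb2), a component of vascular basement membranes and synaptic clefts, was at 7.35 to 7.76 in MM (median 7.45), 7.53 to 7.95 in MS with a median of 7.73, 7.38 to 8.13 in SM with a median of 7.55, and 7.86, 7.95, 7.99 and 8.54 in SS. Every MM array was below every SS array. The difference was -0.59 ± 0.13 in MM (0.666-fold, adjusted p = 0.00116), -0.36 ± 0.13 in MS (adjusted p = 0.0504) and -0.46 ± 0.13 in SM (adjusted p = 0.0182). The SM call was lost without SS replicate 4 (-0.30, adjusted p = 0.139). Lamc1, the γ1 chain shared by most laminins, was at 4.96 to 5.28 in MM, 4.75 to 5.33 in MS, 4.98 to 5.16 in SM and 5.26 to 5.60 in SS, and was called lower in MS (-0.30 ± 0.09, adjusted p = 0.0266) and SM (-0.33 ± 0.10, adjusted p = 0.0213), with -0.26 in MM (adjusted p = 0.0502). Lama1 and Lamb3 were not called in any comparison.

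Of the lecticans, brevican (Bcan), a perineuronal net proteoglycan of astrocytes and oligodendrocyte precursors, was at 5.87 to 6.65 in MM (median 6.19), 6.04 to 6.75 in MS with a median of 6.23, 5.92 to 6.40 in SM with a median of 6.11, and 6.49, 6.49, 6.75 and 6.93 in SS. All 6 SM arrays lay below SS. Bcan was lower, with a difference of -0.46 ± 0.14 in MM (0.728-fold, adjusted p = 0.0198) and -0.56 ± 0.15 in SM (0.677-fold, adjusted p = 0.00972), with -0.39 ± 0.14 in MS (adjusted p = 0.0547). The MM call was lost without SS replicate 3 or 4 (adjusted p = 0.0577 and 0.101) and the SM call without SS replicate 4 (adjusted p = 0.0572). Versican (Vcan) and aggrecan (Acan) were not called, with differences of -0.01 ± 0.07 and -0.18 ± 0.10 in MM. Fibronectin (Fn1) and the fibulins Fbln1 and Fbln5 were not called either. In MM against SS these 3 differed by 0.08 ± 0.16, 0.29 ± 0.17 and -0.19 (adjusted p = 0.779, 0.238 and 0.277).

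**Figure D3:**
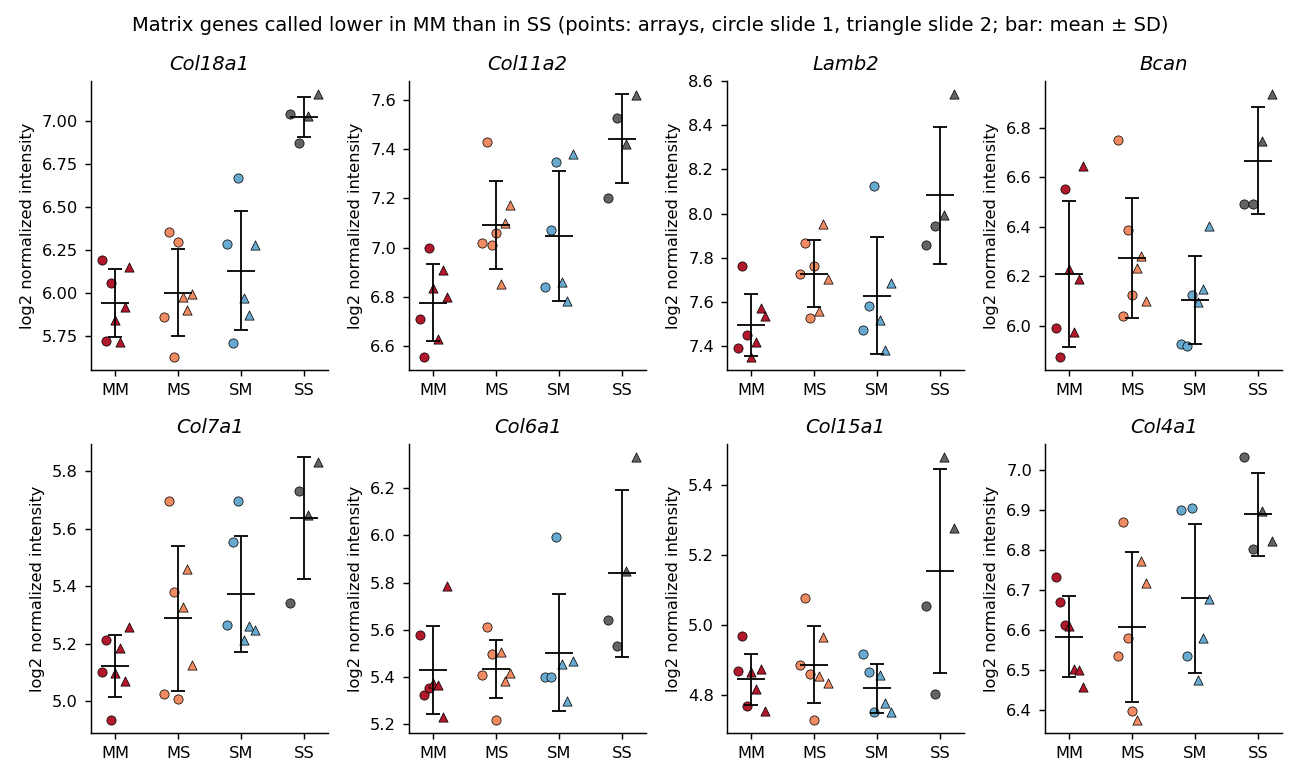
Log2 normalized intensity (y axis) of the 8 matrix genes called lower in MM than in SS, by group (x axis), with 1 point per array (circles slide 1, triangles slide 2) and the mean ± SD as bars. Col18a1 was below 6.87, the lowest SS array, on every array of the METH groups.

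To show the sequences in front of genes that moved in opposite directions, promoters are printed for Col18a1 and Col11a2, which had the largest decreases in MM, for Lum, which had the largest increase, and for Col1a2, the fibrillar collagen called higher. They are from RefSeq (GRCr8), 250 bases before to 50 after the annotated start, written 5′ to 3′ on the gene's own strand. For Col1a2 the 50 bases after that start open with ATG and hold no stop codon in its frame. That start may thus be where translation begins, so the Col1a2 window may not be like the others. Capitals mark the motifs searched, on either strand. The GC box was read as GGGCGG or its complement CCGCCC. The CCAAT box was read as CCAAT or, on the other strand, as ATTGG. The TATA box was read as TATAAA or, likewise, TTTATA. A pair of overlapping GC boxes in Col11a2 forms 1 run.
Col18a1 (chr20:11473395-11473694, plus strand): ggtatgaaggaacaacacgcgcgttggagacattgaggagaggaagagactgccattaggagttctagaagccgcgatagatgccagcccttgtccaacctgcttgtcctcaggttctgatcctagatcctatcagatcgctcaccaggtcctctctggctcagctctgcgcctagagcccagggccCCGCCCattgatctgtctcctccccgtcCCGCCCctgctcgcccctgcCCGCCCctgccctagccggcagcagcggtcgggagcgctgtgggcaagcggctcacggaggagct
Col11a2 (chr20:4817599-4817898, minus strand): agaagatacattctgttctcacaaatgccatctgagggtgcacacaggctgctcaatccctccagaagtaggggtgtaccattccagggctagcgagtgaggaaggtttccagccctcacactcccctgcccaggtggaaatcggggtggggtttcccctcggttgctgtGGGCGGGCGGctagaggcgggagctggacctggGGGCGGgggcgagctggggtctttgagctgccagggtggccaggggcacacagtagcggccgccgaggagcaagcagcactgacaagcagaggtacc
Lum (chr7:34245456-34245755, plus strand): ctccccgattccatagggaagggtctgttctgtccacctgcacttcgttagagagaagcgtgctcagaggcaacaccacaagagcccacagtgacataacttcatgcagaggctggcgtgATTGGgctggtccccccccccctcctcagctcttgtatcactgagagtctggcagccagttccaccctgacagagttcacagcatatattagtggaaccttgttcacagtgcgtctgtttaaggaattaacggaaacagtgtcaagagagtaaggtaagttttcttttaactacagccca
Col1a2 (chr4:33518307-33518606, plus strand): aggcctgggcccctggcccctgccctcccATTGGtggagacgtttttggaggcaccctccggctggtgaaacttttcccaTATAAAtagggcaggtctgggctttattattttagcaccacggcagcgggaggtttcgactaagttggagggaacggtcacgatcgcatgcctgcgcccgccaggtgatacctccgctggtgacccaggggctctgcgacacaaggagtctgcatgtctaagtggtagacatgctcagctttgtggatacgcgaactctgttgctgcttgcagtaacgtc
Within the windows printed, both of the lower collagens hold 3 GC boxes and neither of the other motifs. Lum and Col1a2 each hold a CCAAT box there and Col1a2 a TATA box, with no GC box. The reference holds 34 promoters of 33 of the 43 members. GGGCGG lies in 19 of these 34 (55.9%) and in 33.1% of all 33469 promoters, CCAAT in 11 (32.4%, against 37.5%) and TATAAA in 4 (11.8%, against 14.2%). Among the members called in MM against SS that have a promoter, 5 of 7 lower and 1 of 6 higher genes hold GGGCGG. These are matches of letters, not binding sites, in windows that rest on annotated starts.

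In MS against SS, which reads the first METH injection a month later, 11 of 33 matrix genes were called (33.3%, beside 18.0% of all probes). The 3 higher genes (8.81% of all probes were called higher) were Lum, Col14a1 and Sparcl1, and the 8 lower (9.24% of all probes) were Col18a1, Col6a1, Col11a2, Col7a1, Lamc1, Bgn, Col4a1 and Col15a1. Without regard to the adjustment, 18 of the 33 had a p under 0.05. Every MS array was above every SS array for 2 of the 33 (5.14% of all probes) and below for 3 (5.51%). The calls of Col18a1 and Col14a1 alone held with each of the 11 arrays left out in turn, and the other 9 were lost in 1 to 8 of these fits, with an adjusted p of up to 0.245. The number of calls was 3 without SS replicate 3, 4 without MS replicate 4, 5 without SS replicate 2 or SS replicate 4, and 7 without MS replicate 3 or MS replicate 5.

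In SM against SS, the second METH dose 2 h before death, 8 of 33 were called (24.2%, beside 13.7% of all probes). The 2 higher genes (6.08% of all probes were called higher) were Lum and Col14a1, and the 6 lower (7.59% of all probes) were Col18a1, Bcan, Lamb2, Col11a2, Col15a1 and Lamc1. An unadjusted p under 0.05 was reached by 14 of the 33. No gene had every SM array above SS (3.37% of all probes), and 3 had every SM array below (4.74%). Col18a1 alone held with each of the 10 arrays left out in turn. The number of calls was 4 without SS replicate 3 and 5 without SS replicate 4. Without SS replicate 1, MS replicate 1 and SM replicate 3, which stood apart, it was 14. Calls over all probes rose as well, to 1717 higher and 1780 lower, from 787 and 982 in the fit reported.

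Compared with SM and with MS, MM had a single called matrix gene, Dcn. That is 1 of 33 in each comparison (3.03%), beside 1.28% of all probes in MM against SM and 1.13% in MM against MS, while 10 of the 33 in each had an unadjusted p under 0.05. By direction, 0.641% of all probes were called higher and 0.641% lower in MM than in SM, and 0.657% higher and 0.471% lower in MM than in MS. No matrix gene had every MM array above or below every SM array (0.904% and 0.603% of all probes) or every MS array (0.610% and 0.471%). The genes next nearest to a call were Col27a1 and Col1a2 in MM against SM. Col27a1, a fibrillar collagen, was at 6.36 to 6.72 in MM, against 6.68 to 7.08 in SM (-0.35 ± 0.09, adjusted p = 0.0549). Col1a2 was 0.35 ± 0.09 higher in MM (adjusted p = 0.0552). All 5 small leucine-rich proteoglycans had differences above 0 in both comparisons, with a median of 0.40 against SM and 0.34 against MS, beside 0.01 and 0.00 over all named genes tested. Beside Dcn these were not called, with Ogn at 0.40 ± 0.12 and Fmod at 0.43 ± 0.18 against SM (adjusted p = 0.0976 and 0.239). Without MM replicates 2 and 5, the difference of Dcn was 0.56 against SM and 0.42 against MS (adjusted p = 0.0599 and 0.201). The number of calls against SM was 3 without SM replicate 1 and 2 without MM replicate 7.

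The interaction, (MM minus MS) minus (SM minus SS), asks whether the second METH dose acted alike after METH and after saline. It was called for 2 of 33 matrix genes (6.06%, beside 7.66% of all probes), while 13 had an unadjusted p under 0.05. The calls were 1 above 0 and 1 below, beside 4.16% and 3.51% of all probes. For Col18a1 the second dose went with a difference of -0.06 ± 0.12 in METH-pretreated rats and -0.89 ± 0.15 in saline-pretreated rats, an interaction of 0.83 ± 0.20 (adjusted p = 0.00781). For Col14a1 the differences were -0.16 ± 0.08 after METH and 0.37 ± 0.09 after saline, an interaction of -0.53 ± 0.12 (adjusted p = 0.00652). In both genes the levels of MM, MS and SM lay close together. Both calls held with each of the 24 arrays left out, while the number of calls was 5 without SS replicate 1 or SM replicate 3, 4 without MS replicate 1, and 8 without all 3. Without all 3, calls over all probes were 1008 above 0 and 1033 below, against 538 and 454 in the fit reported. On slide 1 alone and slide 2 alone the interaction was 0.69 and 1.00 for Col18a1 (adjusted p = 0.609 and 0.00395), and -0.69 and -0.38 for Col14a1 (adjusted p = 0.198 and 0.141).

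**Figure D4:**
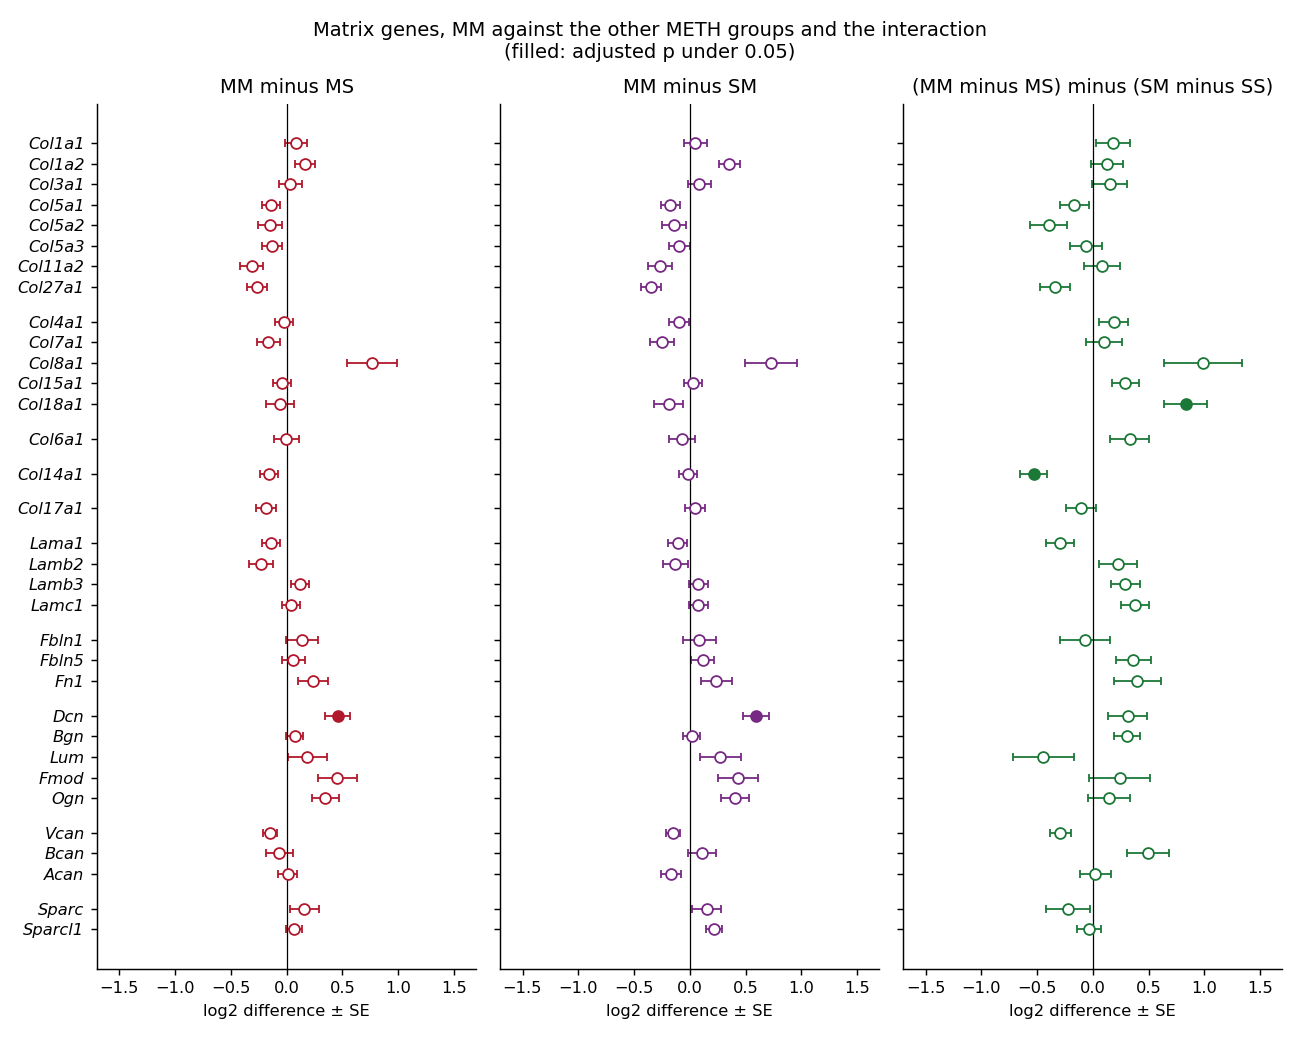
Log2 differences (x axis, with SE) of the 33 tested matrix genes (y axis, by role) in MM minus MS, MM minus SM, and the interaction. Filled points had an adjusted p under 0.05, which Dcn has in the first 2 panels, and Col18a1 and Col14a1 in the third.

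Pairs of genes, some for chains of 1 protein or structure and some for related but separate proteins, were also compared array by array. This was done after the group means were removed, for the 5 of 9 chosen pairs in which both genes were tested. Dcn and Lum varied together over the 24 arrays (Pearson r = 0.593, permutation p = 0.00537, adjusted over the 5 pairs p = 0.0268, and Spearman rho = 0.585, p = 0.00716, adjusted p = 0.0358). Without the 2 arrays farthest from the median of Dcn r was 0.592. Within slide 1 it was 0.473 (permutation p = 0.247) and within slide 2 it was 0.893 (p = 0.0128). Sparc and Sparcl1 had r = 0.452 (permutation p = 0.0113, adjusted p = 0.0284) and rho = 0.407 (p = 0.0489, adjusted p = 0.122), with r = 0.547 without the 2 farthest arrays and, within slides 1 and 2, r = 0.509 and 0.239 (permutation p = 0.214 and 0.179). The relation of Sparc and Sparcl1 did not pass within either slide. Lamb2 and Lamc1 (r = -0.334, rho = -0.357), Col1a1 and Col1a2 (r = 0.055, rho = 0.0748) and Col1a1 and Col3a1 (r = -0.096, rho = -0.0391) had adjusted permutation p-values of 0.16 to 0.868.

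Enzymes that make the matrix and proteins that bind or cut it were read from lists of other genes. Of 16 tested matrix-making enzymes, 3 were called in MM against SS, which is 18.8% of them and below the 22.5% of all probes. Csgalnact1, which starts chondroitin sulfate chains, was higher (0.33 ± 0.11, adjusted p = 0.0355), a call lost in 7 of 11 fits with 1 array left out. Plod1, a collagen lysyl hydroxylase, and Loxl3, a lysyl oxidase, were lower (-0.37 ± 0.10 and -0.28 ± 0.10, adjusted p = 0.00777 and 0.0482). Plod1 was also lower in MS and SM (-0.54 and -0.55, adjusted p = 2.47e-04 and 4.01e-04). Csgalnact1 was also higher there (0.46 and 0.35, adjusted p = 0.00428 and 0.0406), with its SM call lost in 5 fits with 1 array left out. Of the 16 enzymes, 18.8% were called in MS and 12.5% in SM, beside 18.0% and 13.7% of all probes. P4ha1, a collagen prolyl hydroxylase, was lower in MS than in SS (-0.55 ± 0.11, adjusted p = 6.2e-04) and higher in MM than in MS (0.43 ± 0.09, adjusted p = 0.0191). Of 11 tested matrix receptors, none rose (11.0% of all probes were called higher) and 3 fell in MM (27.3%, beside 11.5% of all probes), namely Ddr1, the discoidin-domain collagen receptor (-0.77 ± 0.14, adjusted p = 1.17e-04), and the integrin α chains Itga7 and Itga11 (-0.80 ± 0.18 and -0.43 ± 0.09, adjusted p = 0.00185 and 0.00121). In MS and SM 2 receptors fell, Ddr1 and Itga11, which is 18.2% of the 11, beside 9.24% of all probes in MS and 7.59% in SM. With 1 array left out, the call was lost in 8 fits for Loxl3, without SS replicate 2 for Plod1 in MM, without SS replicate 3 for Itga11 in SM, and in 2 of 14 fits for P4ha1 in MM against MS. Ddr1 kept its call in MM and SM under each alternative run.

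Of 16 tested proteases and inhibitors, 2 rose and 5 fell in MM against SS, which is 12.5% and 31.2% of them, beside 11.0% and 11.5% of all probes. Timp2 and Timp3, tissue inhibitors of metalloproteinases, rose by 0.77 ± 0.13 and 0.52 ± 0.15 (adjusted p = 1.12e-04 and 0.0107). The fallen genes were Mmp14 and Mmp17, membrane-type metalloproteinases (-0.58 ± 0.13 and -0.44 ± 0.13, adjusted p = 0.00174 and 0.018), the aggrecanases Adamts1 and Adamts4 (-0.55 ± 0.12 and -0.35 ± 0.11, adjusted p = 0.00179 and 0.0197) and the inhibitor Timp1 (-0.40 ± 0.12, adjusted p = 0.0185). Timp2 rose in MS and SM too (0.74 ± 0.13 and 0.50 ± 0.14, adjusted p = 2.26e-04 and 0.0154), and Timp1 and Adamts1 fell there too. With 1 array left out, the call was lost in 3 fits for Mmp17 in MM, without SS replicate 2 for Timp2 in SM, and without SS replicate 3 or 4 for Timp1 in SM. Of 8 tested partners of perineuronal nets, the link proteins Hapln1 and Hapln4 rose in MM (25.0% of the 8, beside 11.0% of all probes, at 0.51 ± 0.12 and 0.51 ± 0.10, adjusted p = 0.00186 and 3.48e-04), while Hapln2, a link protein of nodes of Ranvier, fell (12.5%, beside 11.5% of all probes, at -0.52 ± 0.12, adjusted p = 0.00153). In MS these 3 genes were called in the same directions, and in SM Hapln4 and Hapln2 were. The call of Hapln1 in MS was lost in 5 fits with 1 array left out and that of Hapln4 in SM in 6.

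Cells that make matrix were read by their markers. Of 13 meningeal and perivascular fibroblast genes on the array, 11 were tested and 2 (Osr1 and Dpep1) were detected on no array. They summed to 2964 to 6469 in MM (median 3317), 1736 to 2731 in MS with a median of 2606, 1943 to 2308 in SM with a median of 2131 and 1856 to 2914 in SS (median 2201). Every MM array was above every array of the other groups. The sum weighs bright genes most. Of the 11 genes, 2 were called higher in MM than in SM, and 2 than in MS (18.2% in each, beside 0.641% and 0.657% of all probes). Igf2, the brightest of the list, was at 10.73 to 11.97 in MM and at most 10.65 in MS, 10.32 in SM and 10.60 in SS. Igfbp2 was at 8.44 to 10.35 in MM and at most 8.25 in MS, 7.54 in SM and 7.15 in SS. The median difference over the 11 was 0.18 against SM and 0.07 against MS. In MM against SS, Igfbp2, Igf2, Slc6a13 and Crabp2 were higher (2.02, 1.00, 0.36 and 0.32) and Mgp lower (-0.55). That is 36.4% higher and 9.09% lower of the 11, beside 11.0% and 11.5% of all probes. Choroid plexus markers, 7 of 14 tested, summed to 548 to 10048 in MM (median 1652), 150 to 202 in MS with a median of 167, 142 to 270 in SM with a median of 188 and 173 to 436 in SS (median 233). Ttr, which encodes transthyretin and defines this epithelium, was at 8.65 to 13.06 in MM, 4.63 to 5.04 in MS, 4.52 to 7.10 in SM and 6.12 to 8.33 in SS. It was called higher in MM than in SS (3.25 ± 0.63, adjusted p = 4.04e-04) and lower in MS than in SS (-2.19 ± 0.63, adjusted p = 0.0153). Otx2 went the other way in MS and SM, at 5.57 to 6.28 and 5.45 to 6.55, against 4.68 to 5.03 in SS. Of the 7 markers tested, 5 were called higher in MM than in SS (71.4%, beside 11.0% of all probes). In MS 1 was called higher and 1 lower (14.3% each, beside 8.81% and 9.24%), and in SM 1 higher (14.3%, beside 6.08%) and 0 lower. Kcnj13 and Tmem72 were detected on no array, and Folr1, Clic6, Kcne2 and Cldn2 on 2 MM arrays alone. Without the 2 MM arrays highest in these markers, 13 matrix genes were called in MM against SS, 7 higher and 6 lower, and the difference of Dcn was 0.70 (adjusted p = 0.00119). Calls over all probes were then 1098 higher and 1198 lower, against 1425 and 1487 with these arrays. Fmod, Bcan, Col4a1 and Col6a1 lost their calls, with Fmod at 0.38 (adjusted p = 0.116), and Bgn was called lower (-0.28).

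Markers of vessel cells fell beside the basement membrane genes. Of 9 tested endothelial genes, 5 were lower in MM than in SS, 3 in MS and 6 in SM, and none was higher. These are 55.6%, 33.3% and 66.7% of the 9, beside 11.5%, 9.24% and 7.59% of all probes called lower. The endothelial genes summed to 1695 to 2052 in MM, 1554 to 2490 in MS, 1589 to 2334 in SM and 2246 to 3124 in SS. Mural cell markers, 6 tested, summed to 349 to 411 in MM, 365 to 442 in MS, 379 to 531 in SM and 509 to 576 in SS, with 3 called lower in MM, 1 in MS and 0 in SM. The part of fibroblast, choroid plexus and vessel markers in the differences of matrix genes was not tested.

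**Figure D5:**
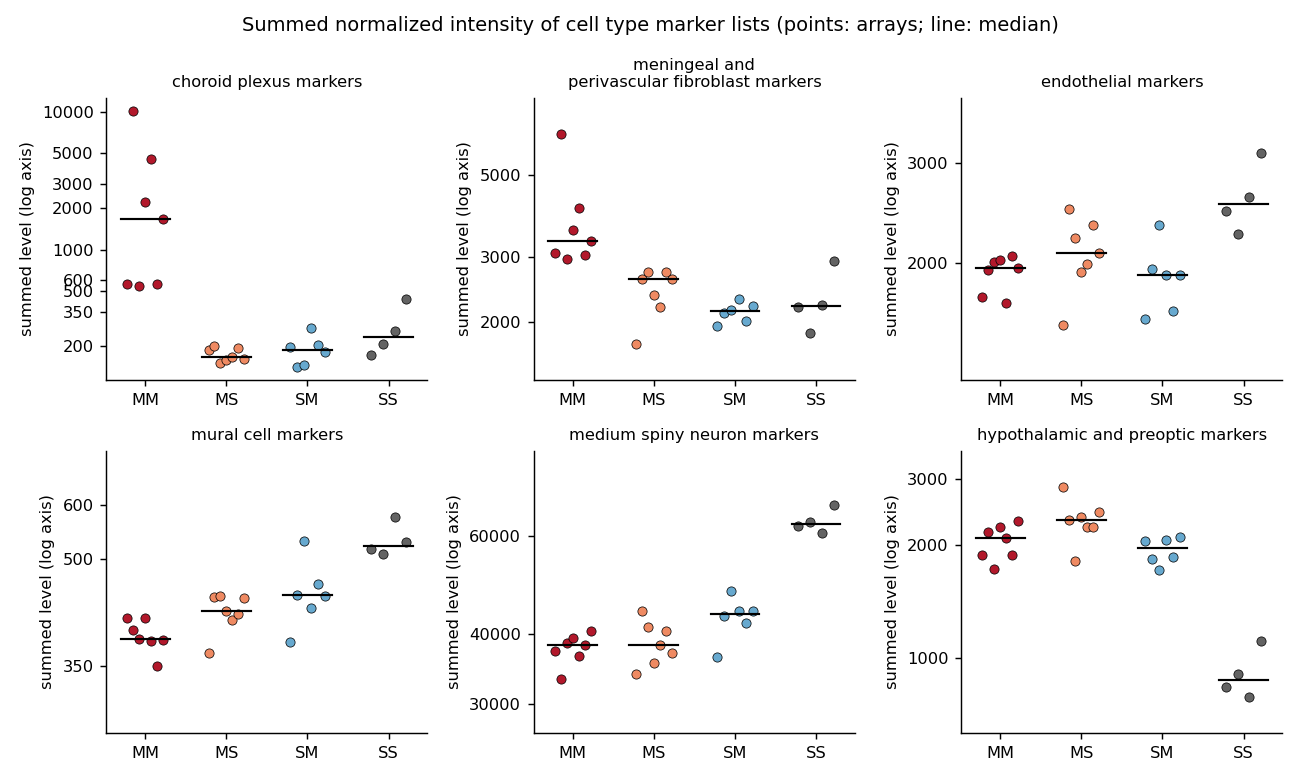
Summed normalized intensity (y axis, log scale) of 6 lists of cell type markers by group (x axis), with 1 point per array and a line at the median. The medians of the choroid plexus and fibroblast lists were highest in MM. Those of the medium spiny neuron, endothelial and mural lists were highest in SS, while that of the hypothalamic and preoptic list was lowest in SS.

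The remaining members held no call. Among the tested genes these were Col1a1, Col3a1, Col5a1, Col5a2, Col5a3, Col8a1, Col17a1, Col27a1, Lama1, Lamb3, Fbln1, Fbln5, Fn1, Vcan and Acan. Col17a1, an epithelial transmembrane collagen, was detected on 4 of the 24 arrays in all. The 10 members that were not tested were Col2a1, Col4a3, Col4a4, Col4a5, Col6a2, Col6a4, Col9a2, Col13a1, Col23a1 and Lamc3. Of these Col4a3 was detected on 3 SM arrays and Col2a1 on 1 MM array, and the other 8 on none.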

How the data were processed

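Per the labels, RNA of 24 rat NAc samples was hybridised to Illumina BeadChips. The authors deposited non-normalized intensity values from BeadStudio (version not given in the sources used here), which may be negative, and a detection score per probe. The deposited detection values behave as 1 minus the detection p-value, but in the deposited row order they were unrelated to the intensities (Spearman rho -0.00699 to 0.000247 over the arrays), so both were matched by rank within each array. That match is an inference from the values, and the background correction, the filter, the counts of arrays with detection and the lower bounds rest on it. A second deposited table holds log2 intensities (values under 1 set to 1) minus each probe's median over arrays, and was used as an alternative. Probes were named from GEO's platform annotation, which can be old. It gave 1 symbol for 13793 of 22523 probes, none for 8730 and several for 0, and all 43 members matched a current RefSeq gene.

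Intensities were background-corrected and quantile-normalized (neqc, limma 3.58.1, R 4.3.3, offset 16). The filter kept the 12943 probes detected (p under 0.05) on 4 or more arrays. A mean per group was fitted over the 24 arrays with lmFit and eBayes, with Benjamini-Hochberg adjustment over all kept probes. Single genes and pairs of genes used exact or 100000-resample permutation tests (scipy 1.17.1, numpy 2.4.6). Figures were drawn with matplotlib 3.10.9 in Python 3.11.15. Array weights came from limma's arrayWeights. Where a gene was detected on no array of a group, the fold is a lower bound from the dimmest detected probe.

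Recovery was read in data simulated for the comparison of MM with SS, with 50 probes changed at each size. Of each 50, 6 were called at 1.25-fold, 28 at 1.5-fold, 37 at 2-fold and 40 at 3-fold. Of 13072 unchanged probes, 9 were called. The changed probes were a far smaller share than the 22.5% of all probes called in MM against SS. The adjustment for multiple tests depends on that share, so these counts do not describe the fit reported. The number of arrays limits the precision.

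Groups came from the sample titles, and replicates were numbered in the order of deposit. The members and lists were chosen with earlier results of these data known. Named members were those past the threshold, up to the 10 largest differences each way in a comparison, and the brightest of each role. Genes of the pathway lists were the 3 each way with the smallest p, and marker genes the 3 brightest of a list. Further genes were named after their values were seen. The alternatives were normexp with an offset of 50, median scaling, the second table, other filters, the slides, fits of the compared arrays alone, and leaving out arrays. Marker lists for astrocytes, microglia, blood and oligodendrocytes were read too. In MM against SS, 3 of 11 astrocyte genes were called higher and 1 lower (27.3% and 9.09%). None was called of 10 microglial and 4 blood genes. Of 12 oligodendrocyte genes 1 was higher and 4 lower (8.33% and 33.3%). Over all probes, 11.0% were called higher and 11.5% lower.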

Additional observations from a re-analysis of the deposited data

Results flagged for a closer look

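Single arrays lay far from the rest of their group in 4 of 84 groups of the 21 named matrix genes, where chance alone marks about 1 in 20 groups. In SM replicate 3, Col6a1 was at 5.99, with 5.47 on the nearest SM array, a gap of 0.760 of the group's range. In MS replicate 4, Col17a1 was at 5.30, with 4.92 on the nearest MS array (0.624 of the range), and Ogn at 7.03, with 6.75 on the nearest (0.583). Dcn in MS replicate 2 was at 7.72, with 7.35 on the nearest MS array (0.618).

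The interaction term of limma was called for 10 of the 84 matrix and list genes tested (11.9%, beside 7.66% of all probes). The 2 of 33 matrix genes (6.06%, below the share of all probes) were Col18a1 (0.83, adjusted p = 0.00781) and Col14a1 (-0.53, adjusted p = 0.00652). Of the enzymes, the interaction was 0.72 for Plod1, 0.66 for P4ha1 and -0.48 for Csgalnact1 (adjusted p = 8.53e-04, 0.00531 and 0.0447). The call of Csgalnact1 was lost in 22 of 34 alternatives, 16 of them with 1 array left out, and with 1 array left out those of Plod1 and P4ha1 held. The collagen receptor Ddr1 had 0.78 (adjusted p = 0.00735). Of the proteases and inhibitors, Adamts1 had 0.62, Timp1 0.57 and Reck -0.45 (adjusted p = 0.0198, 0.0309 and 0.0292), of which Timp1 and Reck each lost the call in 9 of 34 alternatives and Adamts1 in 4. The link protein Hapln2 had 0.79 (adjusted p = 0.00169). The same term was called above 0 for 10 of 16 medium spiny neuron markers (62.5%, beside 4.16% of all probes). It was called below 0 for 4 of 12 hypothalamic and preoptic markers (33.3%, beside 3.51%). The part of these marker shifts in the interactions of matrix and list genes was not tested.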

How the results depend on the processing

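Of 39 calls of matrix genes in 1 comparison each, Dcn in MM against SS and Col14a1 in MS against SS kept theirs under every alternative that held them, and no call reversed. Col14a1 was not detected on every array, so the run of probes detected on all arrays left it out. In MM against SS (16 calls) the number was 7 with the deposited log2 table, 1 on slide 1 alone, and 11 to 17 with 1 array left out, the lowest without SS replicate 3. In MS against SS (11) it was 3 with median scaling, 2 with the log2 table, 7 with no filter, 7 with the compared arrays alone, 1 on slide 1 alone and 3 to 14 with 1 array left out. In SM against SS (8) it was 5 with median scaling, 1 with the log2 table, 5 with probes detected on all arrays, 3 with the compared arrays alone, 0 on slide 1 alone and 4 to 10 with 1 array left out. MM against SM (1) had 2 with normexp, with the slide as a block or with the compared arrays alone, 0 with median scaling, with the log2 table, on either slide alone or without MM replicates 2 and 5, and 1 to 3 with 1 array left out. MM against MS (1) had 0 with median scaling, with the log2 table, with no filter, on either slide alone or without MM replicates 2 and 5, and 0 to 1 with 1 array left out. The interaction (2) had 0 on slide 1 alone, 4 on slide 2 alone and 2 to 5 with 1 array left out. Without the 3 arrays of low weight, SM against SS had 14 calls and the interaction 8, while calls over all probes rose in both comparisons too. Leaving out these 3, or MM replicates 2 and 5, was chosen after seeing the data. A single slide holds fewer arrays, and the cause of the other shifts was not tested. The log2 table moved the median of all probes by 0.13 in MM, 0.14 in MS and 0.25 in SM against SS, with 623 higher and 304 lower in MM against 1425 and 1487 in the fit reported. For MS the split was 509 and 227 against 1140 and 1196, for SM 442 and 86 against 787 and 982, and for the interaction 29 and 130 against 538 and 454. Of the paired genes, r of Col1a1 and Col1a2 was -0.0240 within slide 2 against 0.0550 over all arrays, r of Lamb2 and Lamc1 reached -0.844 within slide 2, and Dcn with Lum (0.473 within slide 1) and Sparc with Sparcl1 (0.509 and 0.239) missed the threshold within slides. No paired analysis was possible because the replicate numbers follow only the order of deposit. Genes near background, such as Col1a1, Col15a1 and Col17a1, and in SS also Fmod and Col14a1, have differences that the offset compresses.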
